A study of Mus musculus with 2 samples.

Results

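Proliferating cells made up a small class among the sorted thymic cells: 264 of 4453 cells assigned to a genotype (5.93%, 95% Clopper-Pearson interval 5.25 to 6.66). They were chosen by their own transcripts, as cells with at least 4 unique molecular identifiers (UMIs, each standing for 1 captured RNA molecule) of Mki67, Top2a, Pclaf and Rrm2 together and 0 UMIs of Lyz2, Jchain and Dntt, which mark macrophages, plasma cells and early thymocytes. The cells came from the thymus of 2 C57BL/6 mice, 1 Foxp3eGFP mouse, whose Foxp3 locus reports with green fluorescent protein, and 1 Foxp3eGFPxLta-/- mouse, which carries the same reporter and lacks lymphotoxin alpha (Lta). In both, CD8+ and CD11c+ cells were depleted, CD4+CD8-CCR6-CD3e+ cells that expressed CD25, eGFP or both were sorted, and 20000 cells of each genotype were tagged with a hashtag antibody and pooled in 1 capture. The labels give no age. With 1 mouse per genotype no test between genotypes was possible. Every interval below covers counting error only, not the spread between mice. Intervals of UMI ratios count each UMI as a separate draw, so they leave out the spread between cells as well.

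Dividing cells copy their genome in S phase and separate the copies after G2 in mitosis. E2F factors drive the genes of DNA replication at the start of this sequence, and the B-MYB and FOXM1 complexes drive the mitotic genes at its end. In the thymus, conventional CD4 thymocytes and the precursors of regulatory T (Treg) cells both derive from positively selected cells, and mature single-positive thymocytes are known to go through a round of division before they leave for the periphery. Foxp3 is the defining transcription factor of Treg cells, and Il2ra encodes CD25, the alpha chain of the interleukin-2 receptor.

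The hashtag names in the deposited features and the antibody numbers in the labels' protocols differ in their numbering, so the genotype of a cell was taken from the feature names. Among the proliferating cells, Lta had 29 UMIs in the 166 Foxp3eGFP cells and 3 UMIs in the 98 Lta-/- cells. In the other assigned cells the counts were 480 and 69, so the order of the labels held in both classes. Of 4798 barcodes, 160 were removed by the limits on genes and mitochondrial UMIs, and 185 carried both hashtags. All cells shared 1 library. The proliferating cells held a median of 14237.5 UMIs (1213 to 52968) and 3633.5 genes, against 5324 UMIs and 1957 genes in the 4189 other assigned cells. Shares of cells with a lineage transcript are therefore also given after every cell was thinned to 3000 UMIs.

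The selecting sum is the value the rule cut on, so its counts are a description and no sign of a separate class. Of the cells without a Lyz2, Jchain or Dntt UMI, 3504 had 0 UMIs of the 4 genes, 305 had 1, 57 had 2 and 30 had 3. Just inside the threshold, 7 cells had 4 UMIs, and 231 of the 264 members had 12 or more, with a median sum of 64. Cells at 3 UMIs had a median of 8858.5 UMIs in all and cells at 4 had 6472. A further 68 cells met the sum but held an excluded gene, which was Dntt in 57 of them, Jchain in 8 and Lyz2 in 7, and these stayed among the other cells.

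**Figure D1:**
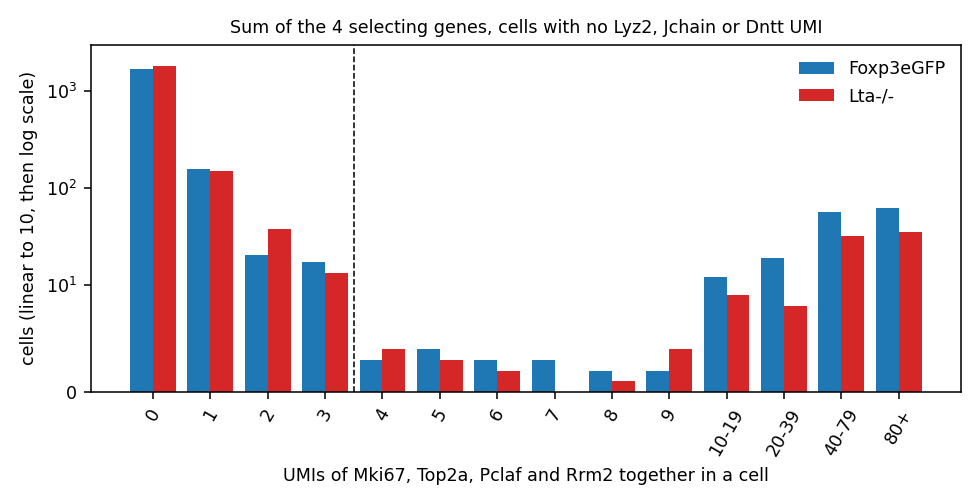
Number of cells (y axis, linear to 10 and logarithmic above) by the summed UMIs of Mki67, Top2a, Pclaf and Rrm2 (x axis) for each genotype, among cells with no Lyz2, Jchain or Dntt UMI; the dashed line marks the threshold of 4 UMIs. Most selected cells lie far above the line, with a median sum of 64 UMIs.

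The levels of the selecting genes describe the choice and are no finding. Mki67, a chromosome surface protein of dividing cells, had a median of 11 UMIs per member (0 to 98). Top2a, the topoisomerase that untangles replicated DNA, had a median of 25.5 UMIs. Pclaf, a partner of the replication clamp, had a median of 13 UMIs, and Rrm2, a subunit of ribonucleotide reductase, had a median of 4 and a UMI in 79.9% of members. Hist1h1b, a replication-dependent linker histone that the rule did not use, had a median of 21.5 UMIs per member and a level of 2002 UMIs per 1000000 UMIs (CPM), against 100.4 CPM in the other cells. The label's proliferation markers were thus all present.

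In the comparison of proliferating with other cells, genes were counted as higher or lower when the CPM ratio passed 1.5-fold, counting only genes whose UMIs in the 2 classes came to 50 or more. This contrast is the one the cells were chosen on, so its counts are a description. Of 10709 genes, 1367 were higher (12.8%) and 2469 were lower (23.1%) in the proliferating cells, with a median log2 ratio of -0.16. With ratios centred on that median, 1819 were higher and 1811 lower. All 25 genes of DNA replication and nucleotide supply outside the phase lists were higher, as were 34 of 35 mitosis genes and 19 of 19 replication histones. Tk1, the thymidine kinase of the salvage pathway, stood at 160 CPM against 9.2 (log2 ratio 4.12, 3.90 to 4.35). Mybl2, which encodes B-MYB, stood at 23.5 CPM against 1.4 (log2 ratio 4.03), and Foxm1 at 36.1 against 2.0 (log2 ratio 4.15). Among the genes furthest apart were Esco2, which acetylates cohesin (log2 ratio 4.87), the mitotic kinase Ttk (4.75), the centromere guardian Sgo2a (4.69) and the repressor E2f8 (4.65).

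Of 23 tested cyclins, cyclin kinases, their inhibitors and related factors, 13 were higher and 5 lower. The inhibitors Cdkn2c (log2 ratio 3.84) and Cdkn2d (1.21) were among the higher genes. Lower were Btg1, Btg2, Ccnd1, Cdkn1b and Rbl2. Btg1, an antiproliferative factor, stood at 328 CPM in the proliferating cells and 987 CPM in the others (log2 ratio -1.59, -1.67 to -1.51). Cdkn1b, the cyclin kinase inhibitor p27, stood at 113 and 176 CPM (log2 ratio -0.65), and Rbl2, the pocket protein of quiescence, at 30.3 and 48.9 CPM (log2 ratio -0.69), and both ratios came within 1.5-fold when centred on the median of all genes. Slfn5, a Schlafen family member, had the lowest ratio outside immunoglobulin and excluded genes among genes with at least 100 UMIs and 50 CPM: 23 UMIs in all proliferating cells against 3856, a log2 ratio of -4.73 (-5.39 to -4.14). At equal depth Slfn5 was seen in 1.15% of proliferating cells and in 31.6% of the others. Kdm5b, a histone demethylase, L3mbtl3, a chromatin reader, and Samhd1, which degrades deoxynucleotides, had log2 ratios of -2.79, -2.21 and -2.15. Within the family of Max dimerization proteins, which counter Myc, the members split: Mxd3 had a log2 ratio of 4.52, whereas Mxd1 had -2.05 and Mxd4 -1.66 (the last pair was picked after the values were seen). Low immunoglobulin transcripts (Iglc2, Igha, Igkc) travel with Jchain, which the rule excluded.

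Of 17 genes of the Myc and ribosome biogenesis list, 1 was higher in the proliferating cells, the nucleolar protein gene Pa2g4. Myc itself stood at 40.6 CPM against 50.5. Of 19 glycolysis and biosynthesis genes, 7 were higher and 2 lower (list median 0.42, beside 12.8% of all genes higher and an overall median of -0.16), and Mthfd2, the mitochondrial enzyme of the folate cycle, stood at 108 CPM against 34.9 (log2 ratio 1.63).

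The lineage transcripts went against the Treg name of the label for most of these cells. Foxp3 was found in 22 of 264 proliferating cells (8.33%, 5.30 to 12.3) and in 865 of 4189 others (20.6%), although the proliferating cells were read more deeply. Il2ra was found in 23 (8.71%, 5.60 to 12.8) against 22.7% of the others. Either transcript was seen in 34 proliferating cells (12.9%) and both in 11 (4.17%). At 3000 UMIs per cell the Foxp3 share was 2.31% against 14.3%, and the Il2ra share 3.46% against 16.2%. As a measure of background, Foxp3 had a UMI in 2 of 41 other cells with 5 or more gamma-delta receptor UMIs (4.88%, median depth 15149 UMIs) and in 3 of 20 cells with 10 or more plasma cell or macrophage UMIs (median depth 8046). The intervals of these shares, 0.60 to 16.5% and 3.21 to 37.9%, are wide. Both include the 8.33% of the proliferating cells, and the second also includes the 20.6% of the other cells. Groups of 41 and 20 cells are thus too small to set a background level. Of the 22 proliferating cells with a Foxp3 UMI, 18 had 2 or more Ikzf2 UMIs and 11 an Il2ra UMI, against 95 and 23 of all 264. Summed levels gave 8.3 CPM of Foxp3 against 58.6 (log2 ratio -2.82, -3.36 to -2.32) and 15.1 CPM of Il2ra against 94.8 (log2 ratio -2.65, -3.04 to -2.28). Against only the other cells with at least 10000 UMIs, the log2 ratios were smaller, at -1.43 and -1.87. The sort was on CD25 and eGFP protein, and protein was not measured here.

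Other Treg genes followed. Of 17 Treg core genes, 14 were lower and 1, the integrin gene Itgae, was higher, with a list median of -1.63 beside -0.16 over all genes. For this list and those below, the shares over all genes were 23.1% lower and 12.8% higher. Ikzf2, which encodes Helios, stood at 287 CPM against 888, Tnfrsf4 (OX40) at 137 against 514 and Tnfrsf18 (GITR) at 108 against 335. Of 16 interleukin-2 and STAT5 genes, 11 were lower and 0 higher, among them Cish, a feedback inhibitor of that receptor (12.1 against 58.6 CPM). Of 20 genes of strong T cell receptor signalling, 12 were lower and 1, Pdcd1, was higher. Nr4a1, an early response gene of the receptor, stood at 17.7 CPM against 58.6. Of 15 apoptosis and survival genes, 10 were lower, including Bcl2 at 197 CPM against 353. General T cell genes were close to the other cells, since 2 of 18 were lower (Cd27 and Bcl11b) and 0 higher, and Cd4 was found in 198 members.

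Igfbp4, a secreted binding protein for insulin-like growth factors, was the transcript that most set apart these cells among the maturation and egress genes. It stood at 597 CPM in the proliferating cells and 151 CPM in the others (log2 ratio 1.99, 1.91 to 2.06), and it was the single gene of the 20 on that list to be higher. At least 2 Igfbp4 UMIs were found in 188 of 264 proliferating cells (71.2%, 65.3 to 76.6) and in 13.1% of the others. At equal depth, proliferating cells made up 21.2% of the cells with an Igfbp4 UMI (164 of 773) and 2.85% of the cells without. The same share was 1.07% among cells with a Foxp3 UMI (6 of 563) and 1.41% among cells with an Il2ra UMI. Lgals1, which encodes a galectin, was seen in 72.3% of thinned proliferating cells against 31.5%, and the interleukin-7 receptor gene Il7r in 44.2% against 27.5%. S1pr1, the receptor by which thymocytes leave the thymus, was lower (90.9 against 243 CPM, log2 ratio -1.42), whereas its regulator Klf2 was level (695 against 643 CPM).

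**Figure D2:**
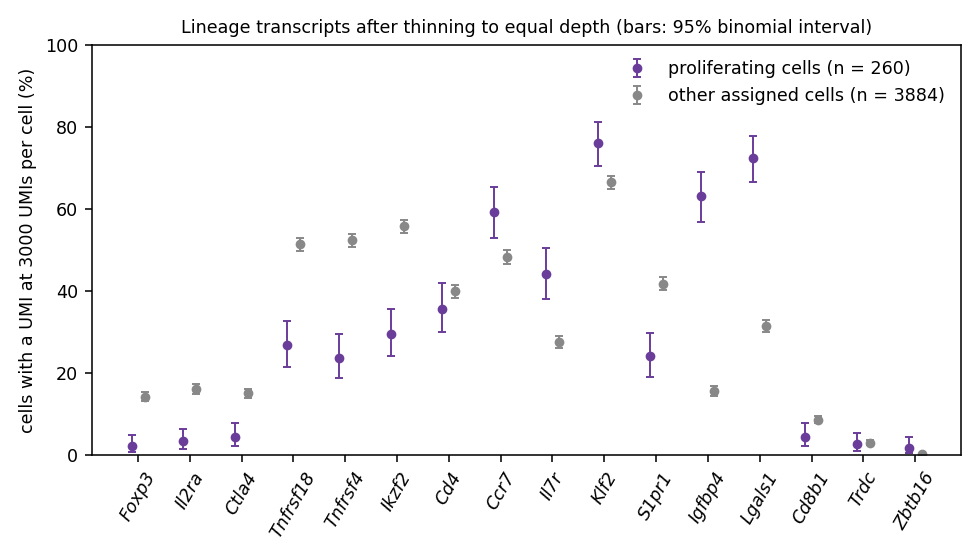
Percentage of cells with at least 1 UMI of each lineage gene (y axis) after thinning to 3000 UMIs, for 260 proliferating and 3884 other assigned cells; bars are 95% binomial intervals. Foxp3, Il2ra, Ctla4, Tnfrsf18, Tnfrsf4 and Ikzf2 lie lower, and Igfbp4 and Lgals1 higher, in the proliferating cells.

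The proliferating cells were not of 1 kind. The 188 cells with 2 or more Igfbp4 UMIs had 91.2 CPM of Ikzf2 and 3.9 CPM of Il2ra, whereas the 76 cells with fewer had 770 and 42.9 CPM, against 1018 and 102 CPM in other cells with fewer than 2 Igfbp4 UMIs. Ikzf2 was seen in 70.8% of those 76 cells after thinning (51 of 72) and in 13.8% of the first group. That first group is not compared here with other cells that had 2 or more Igfbp4 UMIs. Whether its low Treg genes go with Igfbp4 or with division was not tested. Of the 34 cells with a Foxp3 or Il2ra UMI, 10 had 2 or more Igfbp4 UMIs and 27 had 2 or more Ikzf2 UMIs. All 11 cells with both Foxp3 and Il2ra had 2 or more Ikzf2 UMIs.

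Markers of other T cell classes were found in a minority. Zbtb16, the factor of innate-like T cells, had a UMI in 15 proliferating cells (5.68%, 3.22 to 9.20) and in 0.43% of the others. After thinning these shares were 1.92% (0.63 to 4.43) and 0.26%. Of 11 tested genes of the innate-like T, NKT and NK list, 3 were higher (Cd160, Zbtb16 and Cxcr6) and 8 lower, with a list median of -1.03. Over all genes 12.8% were higher and 23.1% lower. At full depth, at least 3 gamma-delta receptor UMIs were found in 12 members (4.55%) against 1.86%, and 17 members had one or the other. No equal-depth share is given for this threshold, and members were read more deeply. Scaled to depth, the gamma-delta list summed to 157 CPM in members and 88.4 CPM in the others. Genes of double-positive and CD8 thymocytes were lower in 8 of 8 cases, against 23.1% of all genes, with Cd8b1 at 18.9 CPM against 35.2. The exclusion of Dntt bears on that list. No Igfbp4 pair, Foxp3, Il2ra, Zbtb16 or gamma-delta sign was seen in 48 members. These transcripts were read from single droplets, and 17 of the 185 droplets with both hashtags met the member rule (9.19%, 5.44 to 14.3), at a median of 18327 UMIs; droplets that hold 2 cells of 1 genotype cannot be told apart from single cells here.

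Phase was assigned from a list of 44 S phase genes and a list of 50 G2/M genes. Each list's UMIs in a cell were divided by the mean over members, and a cell was called S or G2/M when that value passed the other by a factor of 1.5. This gave 119 S cells (45.1%, 39.0 to 51.3), 110 G2/M cells (41.7%, 35.7 to 47.9) and 35 in between. Mean S list UMIs were 130 in S cells, 111 in between and 38.8 in G2/M cells, and mean G2/M list UMIs were 137, 317 and 390. The classes are ranges of a continuum, and 48 cells (18.2%) lay within a factor of 1.2 of a threshold. Their depths were alike, with median UMIs of 13646 in S and 14537 in G2/M.

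**Figure D3:**
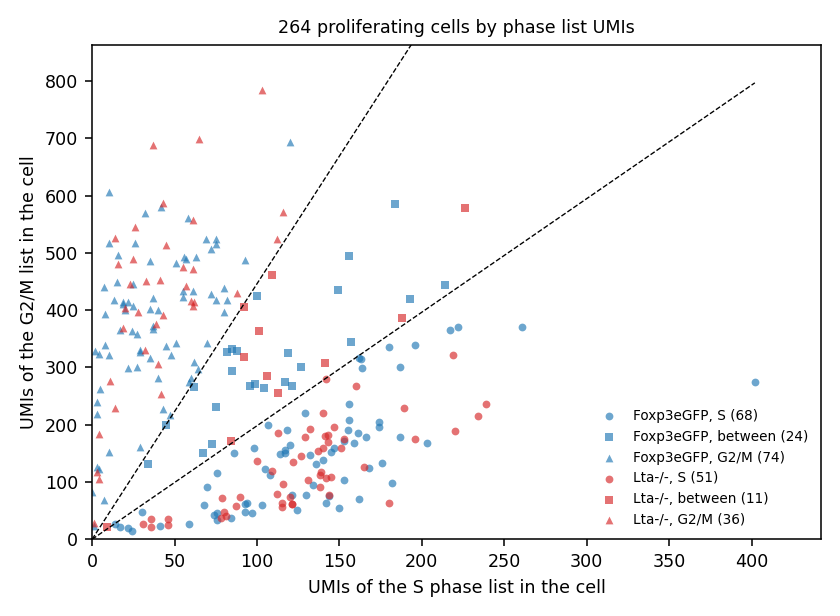
UMIs of the S phase list (x axis) and of the G2/M list (y axis) in each of the 264 proliferating cells, coloured by genotype and shaped by phase; dashed lines are the thresholds at a factor of 1.5. Cells run from low to high G2/M counts through 35 cells in between.

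Promoters of 3 selecting genes and of the S phase gene Mcm5 are shown because they carry different letters for the 2 phases. They span 250 bases before to 50 after 1 annotated transcript start of each gene in RefSeq on GRCm38.p6, which need not be the outermost start of the gene, written 5′ to 3′ on the gene's strand. Capitals mark, on either strand, TTTGAA (the cell cycle homology region of G2/M genes), CCAAT (the NF-Y box, a motif that can share letters with its own reverse complement) and TTTNNCGC (an E2F type site). Mki67 lies at chr7:135716330-135716629 (minus strand), Top2a at chr11:99024140-99024439 (minus strand), Pclaf at chr9:65890073-65890372 (plus strand) and Mcm5, a subunit of the replicative helicase, at chr8:75109259-75109558 (plus strand).
Mki67: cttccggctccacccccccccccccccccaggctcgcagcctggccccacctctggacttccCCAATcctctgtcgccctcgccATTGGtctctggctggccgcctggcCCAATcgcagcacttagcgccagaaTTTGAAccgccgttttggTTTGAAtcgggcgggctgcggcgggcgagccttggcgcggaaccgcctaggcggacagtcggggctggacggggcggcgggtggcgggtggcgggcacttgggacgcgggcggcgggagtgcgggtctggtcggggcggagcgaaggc
Top2a: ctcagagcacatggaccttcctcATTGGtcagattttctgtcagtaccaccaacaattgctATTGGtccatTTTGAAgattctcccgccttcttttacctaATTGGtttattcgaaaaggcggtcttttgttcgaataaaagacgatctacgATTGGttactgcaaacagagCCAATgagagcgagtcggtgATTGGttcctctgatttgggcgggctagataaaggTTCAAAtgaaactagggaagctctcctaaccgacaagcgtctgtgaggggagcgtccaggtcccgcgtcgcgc
Pclaf: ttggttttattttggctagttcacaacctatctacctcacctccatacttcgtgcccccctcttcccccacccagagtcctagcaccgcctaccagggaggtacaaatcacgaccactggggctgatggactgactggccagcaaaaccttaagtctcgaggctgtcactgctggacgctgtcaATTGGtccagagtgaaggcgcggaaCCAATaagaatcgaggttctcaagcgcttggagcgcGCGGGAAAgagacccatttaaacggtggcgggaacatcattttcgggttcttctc
Mcm5: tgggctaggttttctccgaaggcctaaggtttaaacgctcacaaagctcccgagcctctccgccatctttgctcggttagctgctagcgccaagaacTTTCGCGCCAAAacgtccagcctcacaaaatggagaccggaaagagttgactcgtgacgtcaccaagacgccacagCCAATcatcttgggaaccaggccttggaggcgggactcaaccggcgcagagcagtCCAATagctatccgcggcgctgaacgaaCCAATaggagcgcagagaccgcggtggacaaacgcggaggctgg
Mki67 and Top2a each held 2 TTTGAA and 0 TTTNNCGC, whereas Pclaf held 1 TTTNNCGC, Mcm5 held 2 that overlap on opposite strands, and neither held TTTGAA.

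The levels of the same genes differed by phase. Mki67 stood at 570 CPM in S cells and 1495 CPM in G2/M cells, and Top2a at 1179 and 2336 CPM. Pclaf stood at 1358 CPM in S cells and 622 CPM in G2/M cells, Rrm2 at 444 and 252 CPM, and Mcm5 at 219 and 51.3 CPM. Mcm5 is on the S list, so its phase order follows from the call. Over the lists, TTTGAA was in 30 of 44 matched promoters of the G2/M list (68.2%) and 5 of 31 of the S list (16.1%), against 18.1% of 27025 promoters, 1 per gene symbol. TTTNNCGC was in 15 of 31 S list promoters (48.4%) and 9.09% of the G2/M list, against 5.27% of all. CCAAT was common to both, in 22 of 31 and 33 of 44 promoters, against 37.9% of all. Outside the lists, TTTNNCGC was in 16.6% of promoters of genes higher in S, 6.04% of those higher in G2/M and 10.7% of all tested, and TTTGAA in 10.0%, 20.8% and 12.8%. Rrm2 and Ccnb1 held neither TTTGAA nor TTTNNCGC in this window. A match is a run of letters and was not tested as a bound site.

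Of 6394 genes compared between phases, 839 were at least 1.5-fold higher in S (13.1%) and 873 lower (13.7%). The phase call used the 2 lists, and genes that cycle with them are part of the same contrast, so these counts too are a description. Replication genes outside the lists were higher in S in 25 of 25 cases (summed log2 ratio 1.71), and mitosis genes outside the lists were lower in 25 of 35. E2f1, the activator of S phase entry, had 136 UMIs in S cells and 3 in G2/M cells, a log2 ratio of 5.47 (3.89 to 7.77). Cdt1, the licensing factor that is destroyed once replication starts, had 131 against 9 UMIs (log2 ratio 3.83). Lig1, the ligase of the lagging strand, had a log2 ratio of 2.81. At the other end Pif1, a helicase, had 0 UMIs in S cells and 103 in G2/M cells. Against a floor of 3 UMIs over the S cells, its S over G2/M log2 ratio was -5.13 or lower. Cdc25b, the phosphatase that activates CDK1, had a log2 ratio of -3.55, Aspm, a spindle pole protein, -2.95, and Plk1, a mitotic kinase, -2.71.

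Replication histones did not follow the S list. Of 19, 1 was higher in S (Hist1h1a, log2 ratio 0.79), 6 were lower, and Hist1h1b stood at 1834 CPM in S and 1882 CPM in G2/M cells (log2 ratio -0.04, -0.11 to 0.03). The marker was highest in the cells between the phases, at 2862 CPM. The histone list as a whole had a median of 6018 CPM per cell in S, 15181 CPM in between and 8987 CPM in G2/M. The spread within a phase was wide, since the lower quartile in S cells was 271 CPM and the upper 13304 CPM. Most replication histone transcripts carry no poly(A) tail, and the capture was by poly(A).

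Growth and lineage genes also differed by phase. Over all genes, 13.1% were at least 1.5-fold higher in S and 13.7% lower. Of 16 Myc and ribosome biogenesis genes, 6 were higher in S and 0 lower, with Npm1 at 2398 CPM in S and 1445 CPM in G2/M cells (log2 ratio 0.73) and Ncl at 1469 and 936 CPM. Of 16 glycolysis and biosynthesis genes, 7 were higher in S, led by Shmt1 (log2 ratio 1.30) and Mthfd2 (1.05), both enzymes of the folate cycle. Of 13 Treg core genes, 4 were higher in S (Il2ra, Tnfrsf9, Tnfrsf4 and Nt5e) and 0 lower. The summed Treg core log2 ratio was 0.355 within Foxp3eGFP and -0.036 within Lta-/- cells. Among cells with 2 or more Igfbp4 UMIs it was -0.178 (-0.325 to -0.031), with 0 of 5 genes higher and 1 lower. Among cells with fewer it was 0.11 (-0.021 to 0.242), with 0 of 7 genes higher and 0 lower. No Treg core gene tested within an Igfbp4 class was thus higher in S. Of 18 T cell identity genes, 4 were lower in S (Trbc1, Cd4, Bcl11b and Trac) and 0 higher. Of 20 maturation and egress genes, 13 were lower in S and 0 higher (list median -0.86 beside -0.03 over all genes). Klf2, the factor that drives S1pr1, stood at 494 CPM in S and 883 CPM in G2/M cells. S1pr1 stood at 64.8 and 125 CPM, and the class I gene H2-K1 at 907 and 1969 CPM. Igfbp4 stood at 460 and 737 CPM. Of the S cells, 64.7% (55.4 to 73.2) had 2 or more Igfbp4 UMIs, against 79.1% (70.3 to 86.3) of the G2/M cells. The median S over G2/M log2 ratio of the maturation genes was -0.80 among cells with 2 or more Igfbp4 UMIs. Among cells with fewer it was -0.47, and 1 of 15 genes was higher in S. Within each genotype the median was -0.857 in Foxp3eGFP and -0.745 in Lta-/- cells.

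Type I interferon response genes had the most uniform phase difference of the lists that do not serve cell division. Of 23 genes tested, 22 were at least 1.5-fold lower in S and 0 higher, against 13.7% of all genes, with a list median of -0.98. Ifi27l2a, a small interferon-induced membrane protein gene, stood at 1505 CPM in S and 4158 CPM in G2/M cells (log2 ratio -1.47, -1.53 to -1.40). It gave 52.5% of the list's UMIs in the members, and the summed log2 ratio was -1.22 with it and -0.97 without. Slfn1 stood at 112 and 284 CPM and Irf7, a transcription factor of the response, at 51.4 and 111 CPM. Rtp4, a chaperone of receptors, had a log2 ratio of -1.27. Single cells varied widely: the list summed to a median of 2629 CPM (240 to 14205) in S cells, 2764 CPM in the cells in between and 7434 CPM (515 to 29001) in G2/M cells, so the ranges overlapped. The difference was present in both mice, with a summed log2 ratio of -1.32 in Foxp3eGFP cells and -0.87 in Lta-/- cells. It was present with 2 or more Igfbp4 UMIs (-1.38) and with fewer (-0.72). The median of the other assigned cells, 5124 CPM, lay between the phases.

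**Figure D4:**
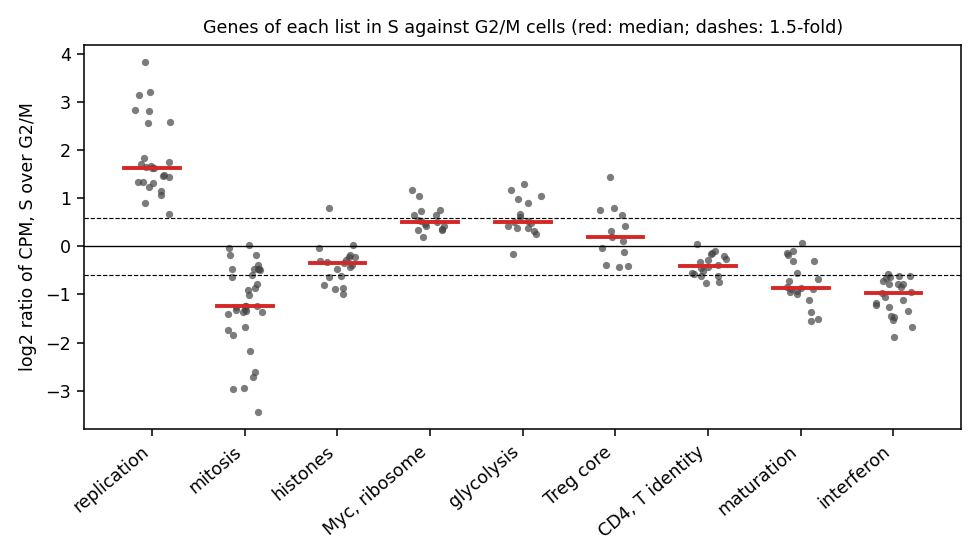
log2 ratio of CPM in S over G2/M cells (y axis) for each tested gene of 9 lists (x axis); red bars are list medians and dashed lines mark 1.5-fold. Replication genes lie above the line in 25 of 25 cases, and interferon genes lie below it in 22 of 23.

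Proliferating cells were a smaller share in the Lta-/- mouse. There were 166 among 2209 Foxp3eGFP cells (7.52%, 6.45 to 8.69) and 98 among 2244 Lta-/- cells (4.37%, 3.56 to 5.30), a ratio of 0.581 (0.448 to 0.750). Equal numbers were sorted from each mouse, so these are shares of the sort and not of the thymus. At equal depth the proliferating share was lower in Lta-/- both among cells with an Igfbp4 UMI (16.8% against 25.6%) and among cells without (1.88% against 3.83%). Phase shares leaned the other way, with S at 41.0% (33.4 to 48.9) in Foxp3eGFP and 52.0% (41.7 to 62.2) in Lta-/- cells and G2/M at 44.6% (36.9 to 52.5) and 36.7% (27.2 to 47.1), and their intervals overlapped. The share with 2 or more Igfbp4 UMIs was 72.3% in Foxp3eGFP and 69.4% in Lta-/- cells. Either Foxp3 or Il2ra was seen in 12.7% and 13.3%. Whether another pair of mice would show these differences cannot be read from these data.

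Few genes differed between the genotypes within the proliferating cells. Of 6785 genes, 180 were at least 1.5-fold higher in Lta-/- cells (2.65%) and 287 lower (4.23%). In the other cells 2.29% of genes were higher and 2.27% lower. The other cells held 25104830 UMIs in all and the proliferating cells 3960913, so these shares rest on unlike depth and are not like for like. None of the 25 replication genes, 35 mitosis genes, 20 maturation genes or 18 T cell identity genes passed 1.5-fold in either direction. E2f1 was higher at 55.8 CPM against 26.5 CPM (log2 ratio 1.08, 0.59 to 1.57), and among S cells alone its log2 ratio was 1.01. Of 13 genes of the lymphotoxin and TNF axis tested, 4 were lower in Lta-/- cells (Tnf, Nfkb2, Nfkbia and Tnfrsf1b) and 0 higher, against 4.23% lower of all genes. Tnf lies within 10 megabases of Lta, so for it lost Lta and the linked chromosome cannot be told apart. In the other cells, 1 of 17 genes of this axis was lower (Lta itself) and 1 higher (Tnfsf14). Ltb, which pairs with Lta at the membrane, stood at 349 CPM in Lta-/- and 436 CPM in Foxp3eGFP cells (log2 ratio -0.32), within 1.5-fold.

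Of the 23 genes tested from the interferon list, 14 were at least 1.5-fold lower in Lta-/- proliferating cells and 0 higher, against 4.23% lower of all genes, with a list median of -0.65 beside 0.00 over all genes. Ifit1, which binds foreign RNA caps, stood at 62.3 CPM in Foxp3eGFP and 19.3 CPM in Lta-/- cells (log2 ratio -1.69, -2.32 to -1.11). Isg15, a ubiquitin-like modifier, stood at 421 and 181 CPM (log2 ratio -1.21, -1.41 to -1.02). Slfn1 had a log2 ratio of -1.26, Rtp4 -1.17 and Irf7 -1.15, whereas Bst2 (-0.20) stayed within 1.5-fold. The summed list had a log2 ratio of -0.65 (-0.69 to -0.60), and of -0.67 without Ifi27l2a. That interval leaves out the spread between cells, and without the 5% of members with the most UMIs the ratio was -0.78. The list's median per cell was 4652 CPM (240 to 29001) in Foxp3eGFP and 2747 CPM (203 to 28532) in Lta-/- cells, so the 2 ranges overlapped almost fully.

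The phase mix bears on that comparison, since S cells had less of the list and were more frequent in the Lta-/- sample. Within S cells the summed log2 ratio was -0.30 (-0.37 to -0.22), and within G2/M cells -0.75 (-0.81 to -0.69). The difference between the phases was not tested. Isg15 was lower within both, at -0.92 in S and -1.38 in G2/M cells. The other assigned cells had the same direction, with a summed log2 ratio of -0.41 and 10 of 27 genes lower, against 2.27% of all genes. The lower level was thus not shown to be particular to dividing cells.

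**Figure D5:**
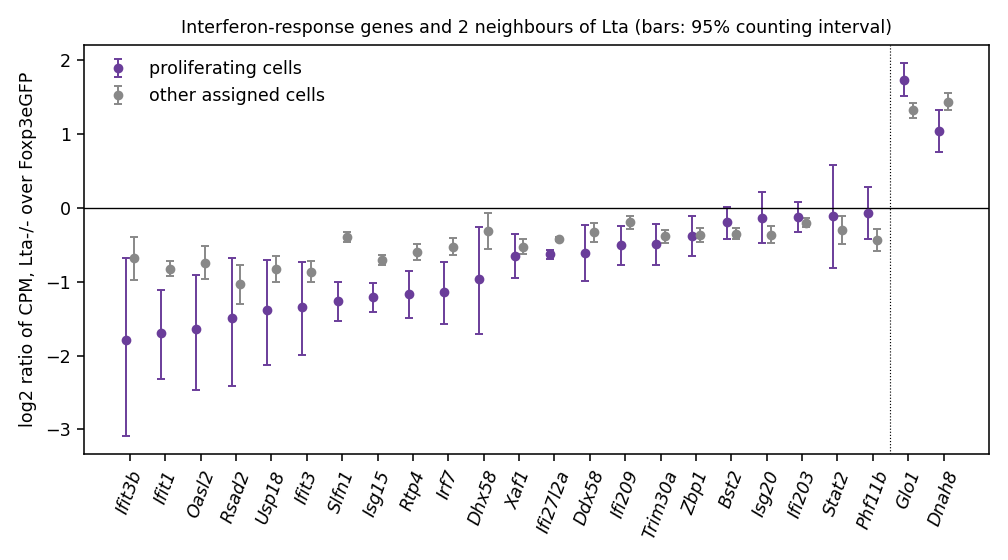
log2 ratio of CPM in Lta-/- over Foxp3eGFP cells (y axis) for 22 interferon response genes and for Glo1 and Dnah8 (x axis), in proliferating and in other cells; bars are 95% counting intervals. The interferon genes lie at or below 0 in the proliferating cells, and Glo1 and Dnah8 lie above 1.

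Genes higher in Lta-/- cells were led by a few that need care. Glo1, the glyoxalase that clears methylglyoxal, stood at 332 CPM against 100 CPM (log2 ratio 1.73) and was detected in 91 of 98 Lta-/- cells and 117 of 166 Foxp3eGFP cells. Dnah8, an axonemal dynein heavy chain gene, stood at 155 against 75.7 CPM (log2 ratio 1.03). Both lie on chromosome 17, as Lta does, 4.61 and 4.58 megabases from it on GRCm38.p6, and both were higher in the other Lta-/- cells as well (log2 ratios 1.31 and 1.43). Within 10 megabases of Lta, 7 of 153 genes were higher (4.58%) and 10 lower (6.54%) in proliferating cells, against 2.60% and 4.07% of 6495 genes elsewhere. An effect of lost Lta and of the linked chromosome cannot be told apart here. S100a6, a calcium-binding protein of effector cells, had a log2 ratio of 1.63 (166 against 53.7 CPM), and 21 Lta-/- and 17 Foxp3eGFP cells held all of its UMIs. Id2, an inhibitor of E proteins, had a log2 ratio of 0.77 and the integrin gene Itgb1 0.74. Gamma-delta genes were lower in 5 of 6 cases, against 4.23% of all genes, with Trdc at 8.0 against 24.8 CPM. Few cells carried them, so the genes are not separate cases: 3 of 98 Lta-/- and 9 of 166 Foxp3eGFP cells held 3 or more gamma-delta receptor UMIs. The highest Foxp3eGFP member reached 5001 CPM of the list, against 193.8 CPM summed over the Foxp3eGFP members.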

How the data were processed

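Thymic cells of 1 mouse per genotype were hashed, pooled and read as 1 capture. The authors deposited raw UMI counts, unnormalized, for each gene in each barcode; Cell Ranger 6.0.1 and mm10 (GRCm38) are named per the submitters' processing notes, and cell calling is not given in the sources used here. Unused columns of per-sample values numbered 0. Cells had at least 500 genes, at most 10% mitochondrial UMIs and 1 hashtag at 80% or more of hashtag UMIs. Droplets with both hashtags were set aside, and no doublet caller was run. Members and gene lists were chosen with earlier results of these data known.

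UMIs were summed per class as CPM. Ratios have exact conditional binomial intervals and shares Clopper-Pearson intervals, at 95%. Levels at 0 counted as 3 UMIs. Genes named were the 12 largest and 12 smallest ratios with at least 100 UMIs and 50 CPM, plus list genes and markers. Left out of that ranking were mitochondrial, ribosomal protein, Gm, Rik, V(D)J, Xist, Tsix, Y-linked and selecting genes, and between phases the phase lists. Some results are not reported here. Ratios were tested on simulated counts drawn without spread between cells, so that check does not cover such spread. Promoters and positions came from RefSeq GRCm38.p6; entries matched 31 of 44 S and 44 of 50 G2/M list genes, and Hist1h1b is named only. Software was Python 3.11.15, numpy 2.4.6, scipy 1.17.1, pandas 2.3.3, scanpy 1.11.5 and matplotlib 3.10.9.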

Additional observations from a re-analysis of the deposited data

Results flagged for a closer look

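Akr1c18, a hydroxysteroid dehydrogenase gene, differed between genotypes in opposite directions in the phases: the Lta-/- over Foxp3eGFP log2 ratio was 5.33 among S members (121 against 4 UMIs) and -3.06 among G2/M members (2 against 31 UMIs). In the Lta-/- members 98.4% of its UMIs came from 1 cell, and in the Foxp3eGFP members 61.1% did. Ifi203, an interferon-inducible gene, had a log2 ratio of 0.44 (0.08 to 0.81) among S members and -0.36 (-0.63 to -0.10) among G2/M members. Neither difference between the phases was tested. In droplets that carried both hashtags, which no comparison used, 17 met the member rule.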

How the results depend on the processing

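With 1 mouse per genotype no mouse could be left out. No paired analysis was possible because each genotype had 1 mouse. The ratio of the proliferating share between genotypes, and those of the S and G2/M shares, stayed within their own 95% counting intervals under the alternatives run for them. The 72 named pairs of a gene and a comparison kept their direction in 1029 of 1032 recomputed values, and genes of the genotype comparison in the other cells were not recomputed. The exceptions were in the Lta-/- over Foxp3eGFP ratio after the rule and all counts were applied to cells thinned to 3000 UMIs, where Gfer had a log2 ratio of 0.17, Gbp2 -0.67 and Copz1 -0.35. Gbp2 had 37.0% of its Lta-/- member UMIs from 1 cell.

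With a phase factor of 2.5 the S share was 30.7%, since fewer cells were called. Counts of genes moved with the number of genes deep enough to compare. Higher and lower in S were 281 and 330 after thinning, 1383 and 1330 with at least 20 UMIs together, and 271 and 332 with at least 200. In proliferating over other cells, 1624 were lower with at least 200 UMIs. Higher and lower in Lta-/- members were 68 and 139 after thinning, 489 and 639 with at least 20 UMIs, and 10 and 43 with at least 200.

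Foxp3 was found in 2.03% and Il2ra in 2.44% of cells that met the rule after thinning. The Foxp3 log2 ratio was -2.18 with a threshold of 4 UMIs per 10000 and -1.43 against other cells with at least 10000 UMIs. For Il2ra it was -2.17 with a threshold of 3 UMIs, -3.20 after thinning and -1.87 against those deep cells. The interferon list between genotypes was -0.57 with a threshold of 3 UMIs, -0.58 with 4 per 10000, -0.76 without the exclusion genes, -0.78 without the 5% of members with the most UMIs and -0.78 after thinning, against -0.65. The causes of these shifts were not tested. The comparison with deep cells, the removal of members with S100a4, S100a6 or gamma-delta UMIs and the median of the interferon list were chosen after seeing the data.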
